A study of Mus musculus with 6 samples.

Results

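The genes described here encode the enzymes that write, read and remove chemical marks on chromatin, and the machines that move nucleosomes. They were chosen by symbol: every gene of the deposited expression table whose name begins with Hdac, Sirt, Kdm, Kmt, Setd, Ezh, Prmt, Kat, Brd, Smarc, Arid, Chd, Ino80, Phf, Dnmt or Tet, together with Ep300, Crebbp, Bap1 and the Asxl genes, with Kdm5d left out. The rule found 99 of the 8191 listed genes, and it used no measured value. They comprised 28 chromatin remodellers and ARID-domain proteins, 14 deacetylases, 13 histone demethylases, 12 lysine methyltransferases, 11 PHD finger proteins, 7 acetyltransferases, 5 bromodomain proteins, 4 arginine methyltransferases, 3 enzymes of DNA methylation, and the pair Bap1 and Asxl1.

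Expression was measured by mRNA-seq of myeloid-derived suppressor cells (MDSCs) from the spleens of aged BALB/c mice, 18 to 24 months old. MDSCs are immature myeloid cells that restrain T cells, and they accumulate with age and in cancer. The 3 genotypes were WT, Tnfr1-/- and Tnfr2-/-, which lack in every cell one of the 2 receptors for tumour necrosis factor, and the cells were neither cultured nor treated. There were 2 samples of each genotype, each a pool of cells from 5 mice, and the values are FPKM, read numbers scaled to the length of the transcript and to the size of the library.

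Acetyltransferases add acetyl groups to histone tails, which loosens chromatin, deacetylases take them off, and bromodomain proteins bind them. Methyltransferases and demethylases do the same with methyl groups on lysine or arginine, where the effect on transcription depends on the residue. Remodellers of the SWI/SNF (BAF), CHD, ISWI and INO80 families use ATP to slide, evict or exchange nucleosomes, and DNA methyltransferases and Tet enzymes set and erase methylation of cytosine. In myeloid cells many of these proteins, among them Ezh2, Tet2, Dnmt3a, Asxl1 and Kmt2a, are known for their part in differentiation or in leukaemia.

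Some properties of the samples followed the genotype and touch every comparison with WT. The table lists only genes that differed among the 3 genotypes by one-way ANOVA, so each member had already been picked for a difference. The sum of all listed FPKM values was 344714 and 346870 in WT and 133604 to 155248 in the knockouts, and WT values carried up to 10 digits against 6 in the knockouts. As a check on the labels, Tnfrsf1b, the gene of TNFR2, stood at 111.8 and 114.9 FPKM in WT, 47.8 and 69.6 in Tnfr1-/-, and 11.3 and 14.3 in Tnfr2-/-. The cell type label was met unequally. Of 16 MDSC and neutrophil markers 4 are listed (Ly6c1, Csf3r, Retnlg and Mmp9), and their summed level was 13.7 to 15.6 FPKM in WT, 2831 to 3165 in Tnfr1-/- and 1700 to 2571 in Tnfr2-/-. Ly6c1 was at 0.159 and 0.0638 FPKM in WT. All 12 macrophage markers are listed, summing to 3881 and 3999 FPKM in WT, 297 and 340 in Tnfr1-/-, and 413 and 373 in Tnfr2-/-. The 6 listed of 8 dendritic cell markers summed to 2824 to 2944 FPKM in WT and 302 to 522 in the knockouts. Most of the WT sum came from H2-Aa and H2-Ab1, at 1174 to 1261 FPKM each. Flt3 alone among the 6 was higher in the knockouts, at 0.156 and 0.26 FPKM in WT and 1.21 to 2.34 in the knockouts. The 4 listed of 7 B cell markers summed to 46.5 to 46.9 FPKM in WT and 167 to 382 in the knockouts, and the 9 listed of 12 genes of cycling cells to 391 to 395 FPKM in WT and 106 to 165 in the knockouts. The 3 listed of 10 T and NK cell markers summed to 20.1 to 43.0 FPKM over all samples, but they went different ways. Cd3d was at 3.21 and 3.39 FPKM in WT and 6.78 to 16.4 in the knockouts. Cd4 was at 24.2 and 25.7 FPKM in WT and 3.86 to 4.89 in the knockouts. Cd3g was at 5.27 and 7.38 FPKM in WT, 16.3 and 23.5 in Tnfr1-/-, and 5.96 and 8.8 in Tnfr2-/-. The only listed plasma cell marker, Jchain, was at 165 to 198 FPKM in WT and 879 to 2186 in the knockouts, and none of 6 erythroid markers is listed. The Y-linked genes Ddx3y, Eif2s3y and Uty were at 0.491 to 3.79 FPKM in WT and at 0 in all 4 knockout samples. Such reads come from male cells, although the study's methods describe sex-matched mice. In each comparison with WT below, the receptor genotype cannot be told apart from these differences in cell makeup, sex and form of the values. Nor can these be told apart from one another, or fewer cells of a type from less RNA per cell.

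Start regions were available in RefSeq for 78 of the 99 genes (build GRCm38.p6, 250 bases before to 50 bases after the transcription start). Those of 2 genes among the 5 largest rises and 2 among the 5 largest falls on log2(FPKM + 1) in Tnfr2-/- against WT are shown, chosen because they lie near both ends of the changes described below and have 1 annotated start each. Capitals mark GC boxes (GGGCGG, the Sp1 motif) and ETS cores (CCGGAAG, the motif of ETS-family factors) on either strand.
Arid5a, chr1:36307483-36307782, plus strand: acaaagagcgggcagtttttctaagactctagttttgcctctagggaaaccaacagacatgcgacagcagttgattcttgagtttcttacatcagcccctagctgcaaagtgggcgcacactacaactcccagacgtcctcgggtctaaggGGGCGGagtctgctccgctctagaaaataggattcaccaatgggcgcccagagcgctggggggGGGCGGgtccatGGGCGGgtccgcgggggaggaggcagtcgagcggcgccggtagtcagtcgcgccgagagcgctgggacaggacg
Kdm7a, chr6:39206724-39207023, minus strand: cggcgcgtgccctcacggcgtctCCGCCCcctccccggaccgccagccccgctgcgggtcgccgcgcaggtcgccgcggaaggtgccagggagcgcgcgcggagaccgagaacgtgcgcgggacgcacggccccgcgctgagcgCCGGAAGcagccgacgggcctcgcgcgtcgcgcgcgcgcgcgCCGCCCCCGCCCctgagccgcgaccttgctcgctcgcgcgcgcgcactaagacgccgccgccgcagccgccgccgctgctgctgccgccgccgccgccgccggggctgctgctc
Prmt2, chr10:76237816-76238115, minus strand: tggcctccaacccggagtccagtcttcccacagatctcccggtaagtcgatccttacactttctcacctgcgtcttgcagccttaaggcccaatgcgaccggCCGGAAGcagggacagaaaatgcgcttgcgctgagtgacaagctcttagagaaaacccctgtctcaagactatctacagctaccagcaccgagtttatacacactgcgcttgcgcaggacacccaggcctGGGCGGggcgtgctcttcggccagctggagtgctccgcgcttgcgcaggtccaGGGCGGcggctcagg
Sirt2, chr7:28766502-28766801, plus strand: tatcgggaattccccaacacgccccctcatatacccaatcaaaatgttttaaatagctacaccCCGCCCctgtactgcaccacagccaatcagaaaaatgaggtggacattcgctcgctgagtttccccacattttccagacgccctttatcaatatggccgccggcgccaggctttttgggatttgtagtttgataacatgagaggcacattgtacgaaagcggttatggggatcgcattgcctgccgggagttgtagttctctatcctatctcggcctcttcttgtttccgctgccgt
The region of Kdm7a was the most CpG-rich of the 4, with 65 CpG dinucleotides and 82.7% G and C, whereas those of Arid5a, Prmt2 and Sirt2 held 22, 20 and 16 CpG. Among all 78 members the median was 24 CpG in the window, against 20 over 6593 genes of the table and 7 over 27025 promoters of the genome. A GC box was found in 56 of the 78 members (71.8%), in 62.8% of the table's genes and in 35.9% of all promoters. The region held a GC box in 18 of 21 members called higher in Tnfr2-/- than in WT, in 20 of 30 called lower and in 18 of 27 not called. The other motifs, searched on both strands, were less common. ETS cores were in 15 members (19.2%), near the 18% of the table's genes and above the 9.12% of all promoters. CCAAT boxes (CCAAT) were in 29 members (37.2%, against 38.7% of the table's genes and 37.9% of all promoters), E2F cores (TTCCCGC) in 9 (11.5%, against 8.4% and 4.66%), AP-1 sites (TGANTCA) in 4 (5.13%, against 5.16% and 7.93%) and TATA boxes (TATAAA) in 2 (2.56%, against 7.13% and 14.2%). E2F cores were in 6 of the 30 members called lower, 1 of the 21 called higher and 2 of the 27 not called. In the same order CCAAT boxes were in 15, 6 and 8, ETS cores in 6, 4 and 5, AP-1 sites in 1, 2 and 1, and TATA boxes in 1, 0 and 1. These counts are small, and no difference between them was tested. These matches describe letters and show no binding.

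Chromatin genes changed in both directions in the knockouts, and which direction prevailed depended on how the samples were scaled. A gene was called when limma gave a Benjamini-Hochberg adjusted p under 0.05 over all listed genes and the fold change on log2(FPKM + 1) exceeded 1.5. The listed genes had already passed an ANOVA on these 6 samples, so an adjusted p here does not bound the share of false calls. In Tnfr2-/- against WT 7756 of the 8191 genes had an unadjusted limma p under 0.05. With FPKM as deposited, 33 members were higher and 35 lower in Tnfr2-/- than in WT, that is 33.3% and 35.4% of 99, where 13.6% and 57.1% of all listed genes were called higher and lower. In Tnfr1-/- against WT 38 members were higher and 41 lower, and 14.1% and 60.7% of all genes. The median log2 change of the members was -0.37 in Tnfr2-/- and -0.36 in Tnfr1-/-, while that of all genes was -0.74 and -0.83. Because most genes were lower in the knockouts on this scale, values were also divided by median-ratio size factors (1.66 to 1.67 in WT, 0.74 to 0.88 in the knockouts), which bring the median of all genes to -0.03 in both comparisons. Then 47 members were called higher and 6 lower in Tnfr2-/-, against 21.8% and 21% of all genes, and 50 and 5 in Tnfr1-/-, against 23.3% and 22.1%. The members' median change on that scale was 0.48 and 0.59. All 33 members called higher in Tnfr2-/- as deposited were also called higher after median-ratio scaling, but only 6 of the 35 called lower remained so: Chd3, Chd5, Prmt2, Setd3, Sirt2 and Sirt4. The size factors raised every knockout value relative to WT, so rises tend to keep their call and falls to lose it by construction. Over all listed genes in Tnfr2-/-, 1115 were called higher and 4679 lower as deposited, and 1787 and 1717 after scaling.

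**Figure D1:**
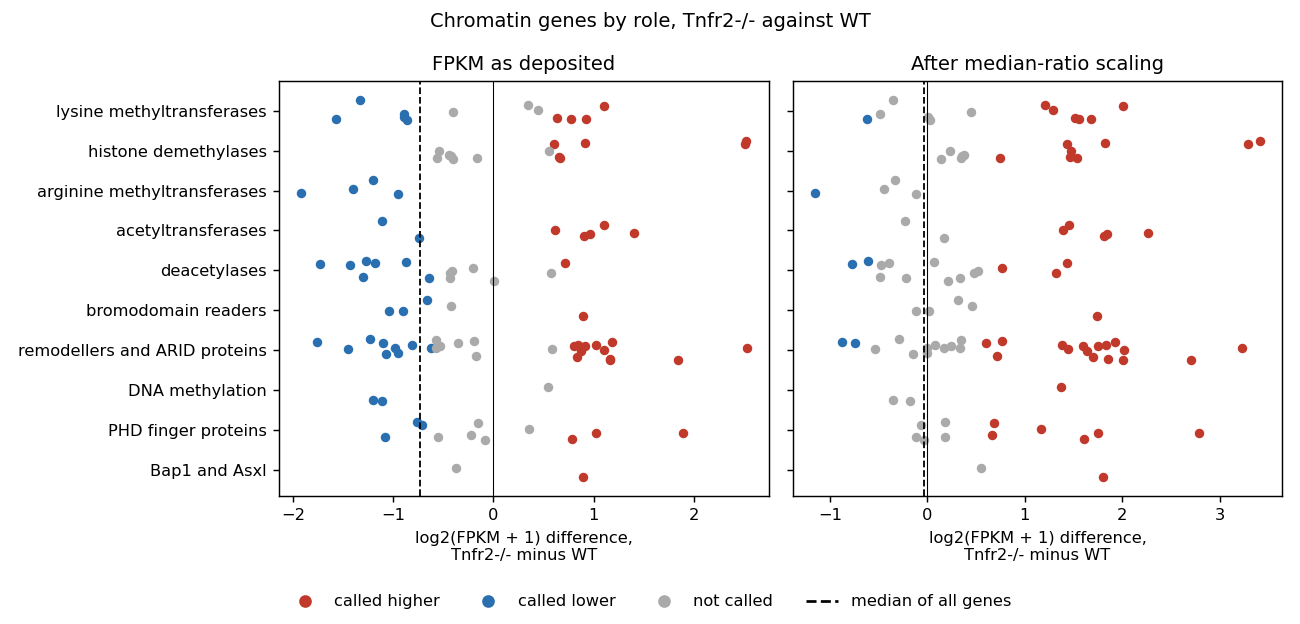
Difference in log2(FPKM + 1) between Tnfr2-/- and WT for each of the 99 genes, grouped by role, as deposited (left) and after median-ratio scaling (right), each from 2 samples per genotype. Red points are called higher, blue lower and grey not called, and the dashed line is the median of all 8191 genes. As deposited 33 points are red and 35 blue, and after scaling 47 are red and 6 blue.

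The comparisons of the 2 knockouts with WT share both WT samples, so the values of each are given side by side and calls made in both are not read as independent. Of the members, 5 were called higher and 7 lower in Tnfr1-/- alone, Smarcc2 was called lower in Tnfr2-/- alone, and 19 were called in neither. Calls in 1 knockout alone were not counted over all genes, so these numbers are not read as particular to the members. Over all genes too, more were called in Tnfr1-/- (14.1% higher, 60.7% lower) than in Tnfr2-/- (13.6% and 57.1%). Of the 13 called in one knockout alone, only Hdac11 also passed the test of the difference between the knockouts. With 2 samples against 2, an exact permutation test of a single gene cannot give a two-sided p under 0.333, so every adjusted p below comes from the limma fit of all genes.

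Some calls rested on single samples. When each sample was left out in turn, 9 members called in Tnfr2-/- against WT lost the call (Brd2, Crebbp, Hdac10, Kat2a, Kdm4c, Phf5a, Setd2, Sirt5 and Smarcc2) and 10 gained one (Chd2, Hdac7, Ino80b, Kdm1a, Kdm2a, Kdm2b, Kmt2d, Phf13, Smarcad1 and Tet2). In Tnfr1-/- 9 lost it (Hdac5, Hdac11, Ino80b, Kat2a, Kdm4c, Phf19, Setd2, Sirt3 and Sirt5) and 5 gained one (Chd1l, Kdm1a, Smarca5, Smarcad1 and Smarcc2). None of the 5 largest rises or falls of either comparison is among them.

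FPKM is scaled to transcript length, so levels of different members can be set side by side. The median over members of the group mean was 7.72 FPKM in WT, 8.95 in Tnfr1-/- and 8.93 in Tnfr2-/-, and the range ran from Phf24, at 0.0799 FPKM or less in each sample, to Kmt5a at 67.3 FPKM in WT. Averaged over the 6 samples Brd2, a reader of acetylated histones, had the highest mean at 43.7 FPKM, although it led in no genotype, followed by the nuclear deacetylase Sirt7 at 40.1 and the demethylase Kdm7a at 39.9. Kdm7a was the highest member in both knockouts, at means of 57.4 and 53.9 FPKM, and stood at 8.5 and 8.47 in WT.

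Histone demethylases gave some of the largest rises. Of 13, as deposited 6 rose and none fell in Tnfr2-/-, and 7 rose and 2 fell in Tnfr1-/-. Among all listed genes 13.6% were called higher and 57.1% lower in Tnfr2-/-, and 14.1% and 60.7% in Tnfr1-/-. Kdm7a removes repressive methyl marks from histone H3, and it measured 8.5 and 8.47 FPKM in WT, 55.1 and 59.7 in Tnfr1-/-, and 60.6 and 47.2 in Tnfr2-/-. Each knockout sample lay above both WT samples, a 6.36-fold rise of the mean in Tnfr2-/- (log2 2.52 ± 0.13 SE, limma adjusted p = 7.89e-05) and 6.76-fold in Tnfr1-/-. Kdm6b (JMJD3) removes the Polycomb mark from histone H3 and is known as an inflammation-induced enzyme of macrophages. It measured 3.81 and 3.23 FPKM in WT, 25.4 and 29.9 in Tnfr1-/-, and 26.6 and 22.9 in Tnfr2-/-. The knockouts again lay wholly above WT, 7.03-fold in Tnfr2-/- (log2 2.51 ± 0.13, limma adjusted p = 7.92e-05) and 7.85-fold in Tnfr1-/-. Its X-linked paralogue Kdm6a (UTX) moved less, at 7.55 and 7.21 FPKM in WT, 12.4 and 12.2 in Tnfr1-/-, and 12.2 and 12.4 in Tnfr2-/-, 1.67-fold in Tnfr2-/- (limma adjusted p = 0.000635). Kdm6a is known to escape X inactivation, and its Y-linked paralogue Uty was read in WT and at 0 in the knockouts. The part of the sex-linked difference in the Kdm6a value was not tested. Kdm3b, Kdm4c and Kdm5a also rose in Tnfr2-/-, by 1.97-, 1.69- and 1.61-fold, although without WT replicate 2 Kdm4c had a log2 difference of 0.55 and was not called. Kdm2a, which binds CpG islands, was called in Tnfr1-/- but not in Tnfr2-/- as deposited (1.73-fold, against 1.51-fold in Tnfr2-/-). Kdm1a (LSD1), at 14.9 and 14.4 FPKM in WT, 9.54 and 9.55 in Tnfr1-/-, and 8.89 and 10.3 in Tnfr2-/-, had a log2 difference of -0.56 in Tnfr2-/- as deposited and 0.35 after median-ratio scaling and was not called under either; without WT replicate 2 or Tnfr2-/- replicate 2 it was called lower as deposited (-0.59 and -0.66). Kdm1b, Kdm2b, Kdm4a, Kdm4b and Kdm8 were not called in Tnfr2-/- as deposited, with log2 differences of -0.54, -0.42, -0.17, -0.44 and -0.4; Kdm1b and Kdm2b were called lower in Tnfr1-/-. After median-ratio scaling 8 of the 13 were higher in Tnfr2-/- and none was lower, against 21.8% and 21% of all genes.

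Lysine methyltransferases divided by enzyme. Of 12, as deposited 4 rose and 5 fell in Tnfr2-/-, and 5 rose and 6 fell in Tnfr1-/-. The shares of all listed genes were 13.6% and 57.1% in Tnfr2-/-, and 14.1% and 60.7% in Tnfr1-/-. The risers included large proteins of the trithorax type, which mark active promoters and enhancers. Kmt2a (MLL), a regulator of haematopoiesis, measured 4.03 and 3.36 FPKM in WT, 10.5 and 9.88 in Tnfr1-/-, and 7.09 and 6.99 in Tnfr2-/-. All knockout samples exceeded WT, and those of Tnfr1-/- also exceeded those of Tnfr2-/-. Kmt2c rose 2.21-fold and Kmt2e 2.27-fold in Tnfr2-/- (limma adjusted p = 0.00213 and 0.000234). Kmt2d, paralogue of Kmt2c at enhancers, was 1.43-fold in Tnfr2-/-, short of the threshold (but called, at a log2 difference of 0.61, without Tnfr2-/- replicate 2), and 2.01-fold in Tnfr1-/-, where it was called. Setd2, which methylates histone H3 in the bodies of transcribed genes, rose 1.61-fold in Tnfr2-/-, from 9.23 and 7.98 FPKM in WT to 14.2 and 13.6, and was not called without WT replicate 2 (log2 0.54). Setd3, known chiefly as the methyltransferase of actin, fell the most in the group on log2(FPKM + 1), at 39.5 and 41.8 FPKM in WT, 12.3 and 11.2 in Tnfr1-/-, and 12.9 and 13.1 in Tnfr2-/-. WT was 3.13-fold above Tnfr2-/- (log2 -1.57 ± 0.08, limma adjusted p = 6.34e-05), and the gene stayed lower after median-ratio scaling at -0.62. Kmt5a, which methylates histone H4 and acts in the cell cycle, was at 67.1 and 67.5 FPKM in WT, 25.5 and 18.4 in Tnfr1-/-, and 28.5 and 24 in Tnfr2-/-, and fell by 1.33 on the log2 scale in Tnfr2-/- as deposited but had a difference of -0.36, not called, after scaling. Setd1a, Setd4 and Setdb1, the last a silencer of heterochromatin, fell in Tnfr2-/- as deposited by 1.95-, 5.93- and 1.96-fold and were not called after median-ratio scaling. Setd4 was scarce, with a mean of 0.597 FPKM over the 6 samples, so its fold change rests on low values. Ezh2, the catalytic subunit of Polycomb repressive complex 2, was at 7.54 and 7.8 FPKM in WT, 4.63 and 3.08 in Tnfr1-/-, and 5.29 and 5.85 in Tnfr2-/-. It was called lower in Tnfr1-/- as deposited (limma adjusted p = 0.00548) and not in Tnfr2-/- (0.0721), and after median-ratio scaling its log2 differences were 0.1 and 0.45. Setd5 was not called as deposited (log2 0.34 in Tnfr2-/-).

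Acetyltransferases mostly rose under both scalings. Of 7, as deposited 5 rose and 2 fell in each knockout, and after median-ratio scaling 5 rose and none fell. All listed genes gave 13.6% higher and 57.1% lower in Tnfr2-/- as deposited, and 21.8% and 21% after scaling. For Tnfr1-/- these shares were 14.1% and 60.7%, and 23.3% and 22.1%. Ep300 and Crebbp, the paired coactivators that acetylate histones at enhancers, measured 12.9 and 11.4 FPKM in WT, 25.6 and 24.8 in Tnfr1-/-, and 26.8 and 20.7 in Tnfr2-/-, and 3.96 and 3.45 FPKM in WT, 6.74 and 6.41 in Tnfr1-/-, and 6.57 and 5.86 in Tnfr2-/-, respectively. Neither gene overlapped between WT and a knockout, and Tnfr2-/- stood 1.95- and 1.68-fold above WT (limma adjusted p = 0.00231 and 0.00321). Crebbp was not called without WT replicate 2 (log2 0.54) or without Tnfr2-/- replicate 1 (0.55). Kat6a (MOZ), needed for haematopoietic stem cells, measured 6.72 and 6.38 FPKM in WT, 19.9 and 22.6 in Tnfr1-/-, and 20.3 and 17.8 in Tnfr2-/-, a 2.9-fold rise in Tnfr2-/-. Kat6b was scarce in WT, at 0.378 and 0.39 FPKM, and was at 1.87 and 2.1 in Tnfr2-/- (limma adjusted p = 7.86e-05). The SAGA-type pair split: Kat2b (PCAF) rose 2.07-fold in Tnfr2-/-, at 8.0 and 8.12 FPKM in WT, 14.9 and 18.2 in Tnfr1-/-, and 15.9 and 17.5 in Tnfr2-/-, whereas Kat2a (GCN5), at 11.7 and 13.1 FPKM in WT, 5.09 and 5.62 in Tnfr1-/-, and 3.8 and 6.96 in Tnfr2-/-, fell 2.3-fold as deposited and had a log2 difference of -0.23, not called, after scaling. Without WT replicate 2 the fall of Kat2a was not called (limma adjusted p = 0.0606). Kat5 (TIP60) fell 1.75-fold as deposited and differed by 0.17 after scaling.

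More deacetylases were called lower than higher as deposited, as among all listed genes, with 1 of 14 higher and 7 lower in Tnfr2-/-, and 3 higher and 10 lower in Tnfr1-/-; after median-ratio scaling 3 were higher and 2 lower in Tnfr2-/-. The 7 lower in Tnfr2-/- are 50% of 14, against 57.1% of all genes, and the 10 lower in Tnfr1-/- are 71.4%, against 60.7%. Of all genes 13.6% were called higher in Tnfr2-/- and 14.1% in Tnfr1-/-. After scaling 21.8% of all genes were higher and 21% lower in Tnfr2-/-. Sirt2, a mainly cytoplasmic deacetylase of tubulin, fell under both scalings. It measured 47.2 and 49.7 FPKM in WT, 12.5 and 13 in Tnfr1-/-, and 12.9 and 14.9 in Tnfr2-/-. The highest knockout sample was at 14.9 FPKM. The mean of Tnfr2-/- was 3.48-fold under that of WT (log2 -1.73 ± 0.09, limma adjusted p = 8.20e-05, and -0.77 after scaling). Hdac1, a class I enzyme of the NuRD, Sin3 and CoREST complexes, measured 38.9 and 41.2 FPKM in WT, 14 and 11.4 in Tnfr1-/-, and 12.3 and 16.4 in Tnfr2-/-, 2.78-fold lower in Tnfr2-/- as deposited and not called after scaling (log2 -0.47). Its partner Hdac2 was at 17.5 and 17.9 FPKM in WT, 11.2 and 11 in Tnfr1-/-, and 12.7 and 13.4 in Tnfr2-/-, not called in Tnfr2-/-. Hdac3, the enzyme of the NCoR complex, fell 1.89-fold as deposited and differed by 0.07 after scaling. Hdac6, X-linked and also a tubulin deacetylase, fell 3.08-fold as deposited, from 7.22 FPKM in both WT samples to 2.41 and 2.27. Among the mitochondrial sirtuins, Sirt4 and Sirt5 fell 3.88- and 3.01-fold in Tnfr2-/- as deposited, from WT levels of 3.47 and 3.75 and of 1.31 and 1.01 FPKM, and Sirt3 (4.76 and 4.56 FPKM in WT, 2.56 and 2.95 in Tnfr1-/-, and 3.14 and 3.21 in Tnfr2-/-) was called lower in Tnfr1-/- alone, and not there without Tnfr1-/- replicate 1 (log2 -0.52) or WT replicate 1 (-0.57). Sirt6, a nuclear enzyme of DNA repair, fell 2.86-fold as deposited. Sirt7 varied little, at 45.6 and 43.8 FPKM in WT, 37.4 and 36 in Tnfr1-/-, and 38.1 and 39.5 in Tnfr2-/-, and its log2 difference changed from -0.2, not called, to 0.77, called higher, with the scaling. Hdac10 was the only deacetylase called higher in Tnfr2-/- as deposited (1.87-fold), and without WT replicate 2 or Tnfr2-/- replicate 2 it was not called (log2 0.55 and 0.58). Sirt5 likewise lost its call without WT replicate 1 (-0.54) or Tnfr2-/- replicate 1 (-0.57). Hdac7, of the signal-responsive class IIa, measured 3.27 and 3.26 FPKM in WT, 6.8 and 7.27 in Tnfr1-/-, and 4.52 and 6.29 in Tnfr2-/- and was called higher in Tnfr1-/-, and in Tnfr2-/- once replicate 1 was left out (0.77). Hdac5 of the same class (14.3 and 15.1 FPKM in WT, 8.47 and 9.74 in Tnfr1-/-, and 10.9 and 10.3 in Tnfr2-/-) was called lower in Tnfr1-/- as deposited, but not without Tnfr1-/- replicate 1 (-0.54).

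**Figure D2:**
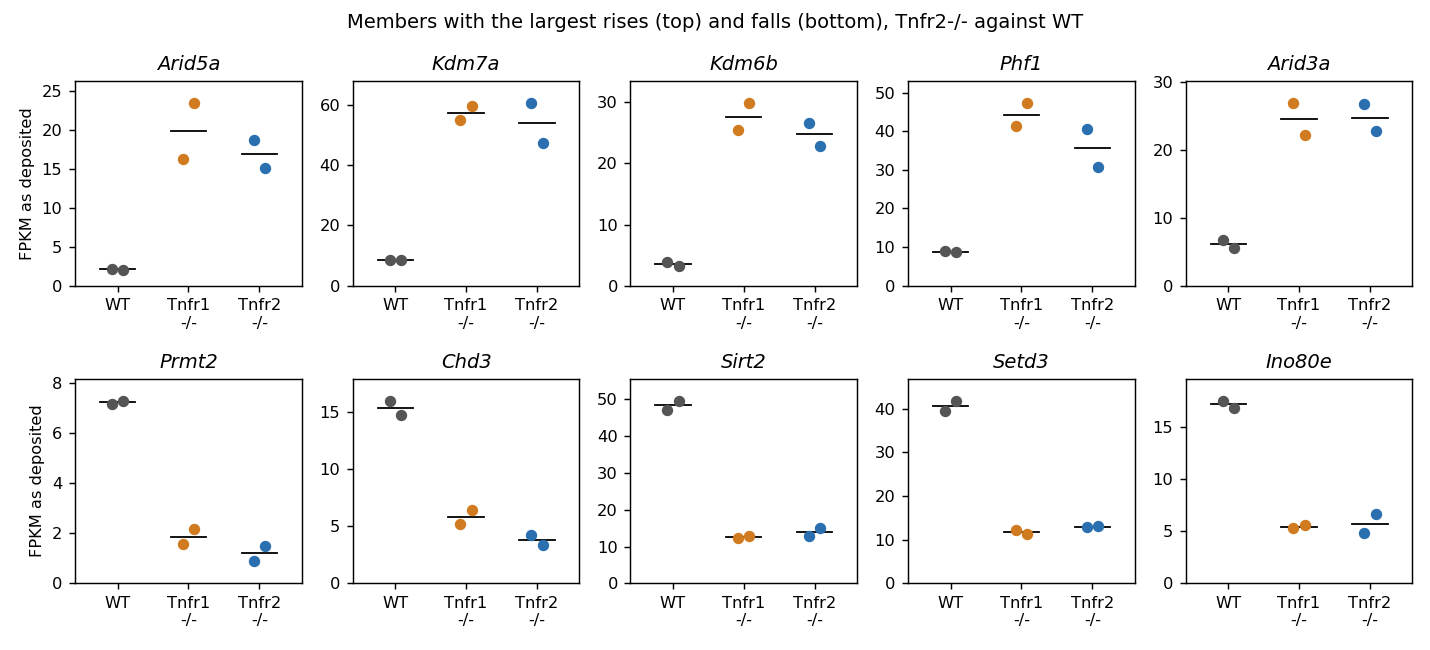
FPKM as deposited in each of the 6 samples for the 5 chromatin genes with the largest rises (top) and the 5 with the largest falls (bottom) on log2(FPKM + 1) in Tnfr2-/- against WT; points are samples and lines the mean of 2. In each panel the 4 knockout samples lie on one side of both WT samples.

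The remodellers and ARID-domain proteins, the largest group with 28 members, gave 12 higher and 9 lower in Tnfr2-/-, and 13 and 9 in Tnfr1-/-, as deposited, and 16 and 2 in Tnfr2-/- after median-ratio scaling. Shares of all listed genes, in the same order, were 13.6% and 57.1%, 14.1% and 60.7%, and 21.8% and 21%. The ARID genes all rose in both knockouts. Arid5a, known for binding and stabilising messenger RNA of inflammatory cytokines rather than as a remodeller subunit, gave the largest rise of all members, at 2.15 and 2.01 FPKM in WT, 16.3 and 23.4 in Tnfr1-/-, and 18.7 and 15 in Tnfr2-/-. The lowest knockout sample was at 15 FPKM and both WT samples were far below it. The mean was 8.11-fold that of WT in Tnfr2-/- (log2 2.53 ± 0.20, limma adjusted p = 0.00026) and 9.53-fold in Tnfr1-/-. Arid3a, a transcription factor best known in B cells, measured 6.78 and 5.58 FPKM in WT, 27 and 22.2 in Tnfr1-/-, and 26.8 and 22.8 in Tnfr2-/-, 4.01-fold higher in Tnfr2-/-; the summed B cell markers were also higher in the knockouts, and their part in its value was not tested. Arid3b, Arid4a and Arid4b, the latter pair in Sin3 complexes, rose 2.73-, 2.47- and 2.06-fold. Arid1a, the DNA-binding subunit of canonical BAF, measured 12.8 and 11.5 FPKM in WT, 31 and 29.8 in Tnfr1-/-, and 27.8 and 26.7 in Tnfr2-/-, 2.25-fold higher in Tnfr2-/- (limma adjusted p = 0.000176).

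Within BAF the subunits split. Of the 2 alternative ATPases, Smarca2 (BRM) rose 1.93-fold in Tnfr2-/-, at 4.24 and 3.97 FPKM in WT, 9.1 and 8.92 in Tnfr1-/-, and 8.58 and 7.29 in Tnfr2-/-, and Smarca4 (BRG1) fell 2.21-fold as deposited, at 19.7 and 20.2 FPKM in WT, 8.79 and 7.76 in Tnfr1-/-, and 7.73 and 10.3 in Tnfr2-/-. After median-ratio scaling Smarca2 was still called higher (1.6) and Smarca4 was not called (-0.15). The core subunits Smarcb1, Smarcc1, Smarcc2 and Smarce1 fell in Tnfr2-/- as deposited by 2.46-, 1.87-, 1.56- and 1.99-fold, and after scaling their log2 differences, -0.3, 0.08, 0.33 and -0.01, were not called. Smarcc2 also lost its call as deposited without Tnfr2-/- replicate 2 (-0.57). Smarcd2, the subunit required for granulocyte differentiation, measured 37.4 and 35.5 FPKM in WT, 33 and 31.5 in Tnfr1-/-, and 32.2 and 31.3 in Tnfr2-/-: the level differed little as deposited (log2 -0.19, not called) and was called higher after scaling (0.77). Smarca5, the ISWI ATPase, and Smarcad1 were not called in Tnfr2-/- as deposited (-0.35 and -0.57), the latter being called lower without WT replicate 2 or Tnfr2-/- replicate 2 (-0.62 and -0.69).

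The CHD ATPases also split. Chd1, which works with elongating polymerase, Chd7, the CHARGE syndrome gene, and Chd9 rose 1.89-, 2.29- and 2.49-fold in Tnfr2-/-. The NuRD ATPases fell. Chd4 measured 58.5 and 60.1 FPKM in WT, 30.5 and 29.7 in Tnfr1-/-, and 31.8 and 27.4 in Tnfr2-/-, and Chd3 16 and 14.7 FPKM in WT, 5.26 and 6.48 in Tnfr1-/-, and 4.25 and 3.41 in Tnfr2-/-. For both genes WT lay above every knockout sample, by 2.0-fold (Chd4) and 4.02-fold (Chd3) over Tnfr2-/-, and after scaling Chd3 was still called lower (-0.88) but Chd4 was not (-0.01). Chd5, an ATPase of the same subfamily known from neurons and testis, was chosen after its values were seen: it was at 1.06 and 1.32 FPKM in WT and between 0.0118 and 0.0232 in the 4 knockout samples, a log2(FPKM + 1) difference of -1.1 in Tnfr2-/- (limma adjusted p = 8.17e-05). Chd1l, Chd2 and Chd8 were not called in Tnfr2-/- as deposited, with log2 differences of -0.54, 0.58 and -0.18; Chd2 was called higher without WT replicate 2 or Tnfr2-/- replicate 2 (0.63 and 0.60). In the INO80 complex the ATPase Ino80 (2.23 and 2.12 FPKM in WT, 5.3 and 5.25 in Tnfr1-/-, and 5.78 and 6.47 in Tnfr2-/-) and Ino80d rose 2.81- and 2.07-fold, whereas Ino80e fell 3.0-fold as deposited and was not called after scaling (-0.54). Ino80b was called lower in Tnfr1-/- and not in Tnfr2-/- (1.64-fold, against 1.53-fold in Tnfr2-/-), and single samples decided both (-0.56 in Tnfr1-/- without its replicate 1, -0.61 in Tnfr2-/- without its replicate 1).

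All 4 arginine methyltransferases fell in both knockouts as deposited, where 57.1% of all listed genes were called lower in Tnfr2-/- and 60.7% in Tnfr1-/-. Prmt2 gave the largest fall of all members in Tnfr2-/- on log2(FPKM + 1), at 7.18 and 7.3 FPKM in WT, 1.56 and 2.16 in Tnfr1-/-, and 0.899 and 1.5 in Tnfr2-/-. The knockout samples all lay below both WT samples, and WT was 6.03-fold above Tnfr2-/- (log2 -1.92 ± 0.18, limma adjusted p = 0.000412, and -1.15 after scaling, also called). Prmt1, the main source of asymmetric dimethylarginine, measured 34.6 and 35.3 FPKM in WT, 9.25 and 8.06 in Tnfr1-/-, and 9.48 and 16.7 in Tnfr2-/-; the Tnfr2-/- samples spread widely, and after scaling the gene was called lower in Tnfr1-/- (-0.82) and not in Tnfr2-/- (-0.45). Prmt5, the main symmetric enzyme, and Prmt6 fell 2.59- and 2.16-fold in Tnfr2-/- as deposited and were not called after scaling.

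Enzymes of DNA methylation did not move as one. Dnmt1, which copies methylation onto new DNA strands, was at 23.1 and 23 FPKM in WT, 11.1 and 8.7 in Tnfr1-/-, and 11.2 and 9.07 in Tnfr2-/-, and Dnmt3a, which sets it anew, at 9.56 and 9.05 FPKM in WT, 2.46 and 2.88 in Tnfr1-/-, and 2.57 and 4.61 in Tnfr2-/-. Both were called lower in both knockouts as deposited (2.27- and 2.59-fold in Tnfr2-/-) and were not called after median-ratio scaling (-0.18 and -0.36). The listed genes of cycling cells fell alongside Dnmt1 as deposited (8 of 9 called lower in Tnfr2-/-, 2 of 9 after scaling), and their part in its value was not tested. Tet2, which oxidises methylcytosine, had the opposite sign, at 6.01 and 4.79 FPKM in WT, 6.85 and 7.15 in Tnfr1-/-, and 7.88 and 8.77 in Tnfr2-/-: it was not called as deposited (log2 0.55 in Tnfr2-/-) and was called higher after scaling (1.37) and without WT replicate 1 or Tnfr2-/- replicate 1 (0.69 and 0.62).

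Among the bromodomain proteins, Brd1, Brd2 and Brd7 fell as deposited in both knockouts, while Brd9 was not called. These 3 are 60% of the 5, near the 57.1% of all listed genes called lower in Tnfr2-/- and the 60.7% in Tnfr1-/-. Brd2, of the BET family of acetyl-histone readers, measured 59 and 58 FPKM in WT, 33.9 and 37.6 in Tnfr1-/-, and 34.6 and 38.9 in Tnfr2-/-, 1.59-fold lower, but not called without Tnfr2-/- replicate 1 (-0.58). After median-ratio scaling Brd1, Brd2 and Brd7 were not called in Tnfr2-/- (log2 -0.11, 0.31 and 0.02).

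Among the 11 PHD finger proteins, Phf1, Phf8 and Phf21a rose and Phf5a, Phf19 and Phf23 fell as deposited in both knockouts. Of all listed genes 13.6% were called higher and 57.1% lower in Tnfr2-/-, and 14.1% and 60.7% in Tnfr1-/-. After median-ratio scaling 6 of the 11 were higher and 0 lower in each knockout. The shares of all genes were then 21.8% and 21% in Tnfr2-/-, and 23.3% and 22.1% in Tnfr1-/-. Phf1, an accessory subunit of Polycomb repressive complex 2, measured 8.9 and 8.67 FPKM in WT, 41.2 and 47.3 in Tnfr1-/-, and 40.6 and 30.7 in Tnfr2-/-, 4.06-fold higher in Tnfr2-/- (log2 1.89 ± 0.15, limma adjusted p = 0.000274) and 5.04-fold in Tnfr1-/-. Its paralogue Phf19 was scarce, at 2.89 and 2.65 FPKM in WT, 1.53 and 0.989 in Tnfr1-/-, and 1.1 and 1.5 in Tnfr2-/-, and lower as deposited only. Phf5a belongs to the SF3b splicing complex and shares with the others only its domain; its fall in Tnfr2-/- was not called without Tnfr2-/- replicate 1 (-0.56). Phf8, an X-linked demethylase, rose 1.88-fold. Phf6, Phf10, Phf13, Phf20 and Phf24 were not called as deposited, but Phf6, Phf10 and Phf20 were called higher in both knockouts after median-ratio scaling. Asxl1, the cofactor of the histone H2A deubiquitinase Bap1, measured 12.7 and 11.4 FPKM in WT, 23.2 and 26.5 in Tnfr1-/-, and 26.4 and 20.3 in Tnfr2-/-, 1.94-fold higher in Tnfr2-/-, and Bap1 itself 17.1 and 16.8 FPKM in WT, 13.2 and 12.1 in Tnfr1-/-, and 12.4 and 13.4 in Tnfr2-/-, not called.

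Ratios between related genes within a sample are the same under any single factor per sample, such as a median-ratio size factor, but not under quantile or length scaling. Of 19 pairs, 11 have both genes listed. No test was made of a ratio. In 2 pairs the order of the partners was turned over in all 4 knockout samples. The log2 ratio of Kdm6a to Kdm6b was 0.99 and 1.16 in WT, -1.03 and -1.29 in Tnfr1-/-, and -1.12 and -0.88 in Tnfr2-/-. Kdm6a was thus 1.98 and 2.23 times as abundant as Kdm6b in WT, and less abundant than it in each knockout sample. The log2 ratio of Kat2a to Kat2b was 0.55 and 0.69 in WT, -1.55 and -1.69 in Tnfr1-/-, and -2.07 and -1.33 in Tnfr2-/-, which also passed from above to below 0 in all knockout samples. In other pairs the gap closed. For Smarca4 to Smarca2 it was 2.22 and 2.35 in WT, -0.05 and -0.2 in Tnfr1-/-, and -0.15 and 0.5 in Tnfr2-/-, so BRG1 was 4.65 and 5.09 times BRM in WT and 0.871 to 1.42 times in the knockouts. The log2 ratio of Hdac1 to Hdac2 was 1.15 and 1.2 in WT, 0.32 and 0.05 in Tnfr1-/-, and -0.04 and 0.29 in Tnfr2-/-. Kat6a to Kat6b, 4.15 and 4.03 in WT, 3.08 and 3.24 in Tnfr1-/-, and 3.44 and 3.08 in Tnfr2-/-, rests on Kat6b values of 0.378 and 0.390 FPKM in WT. Chd3 to Chd4 was -1.87 and -2.03 in WT, -2.53 and -2.19 in Tnfr1-/-, and -2.9 and -3.01 in Tnfr2-/- and Smarcc1 to Smarcc2 -1.31 and -1.36 in WT, -1.93 and -1.98 in Tnfr1-/-, and -1.8 and -1.4 in Tnfr2-/-. With 1 FPKM added to both genes the latter ratio overlapped between WT and Tnfr2-/-. Smaller shifts were seen for Ep300 to Crebbp (1.71 and 1.72 in WT, 1.93 and 1.95 in Tnfr1-/-, and 2.03 and 1.82 in Tnfr2-/-) and Kmt2a to Kmt2d (-0.77 and -0.75 in WT, -0.33 and -0.27 in Tnfr1-/-, and -0.5 and -0.16 in Tnfr2-/-). The ratios of Dnmt1 to Dnmt3a (1.27 and 1.35 in WT, 2.18 and 1.6 in Tnfr1-/-, and 2.12 and 0.98 in Tnfr2-/-) and of Prmt1 to Prmt5 (1.66 and 1.69 in WT, 1.34 and 0.96 in Tnfr1-/-, and 1.34 and 1.83 in Tnfr2-/-) overlapped between WT and Tnfr2-/-.

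**Figure D3:**
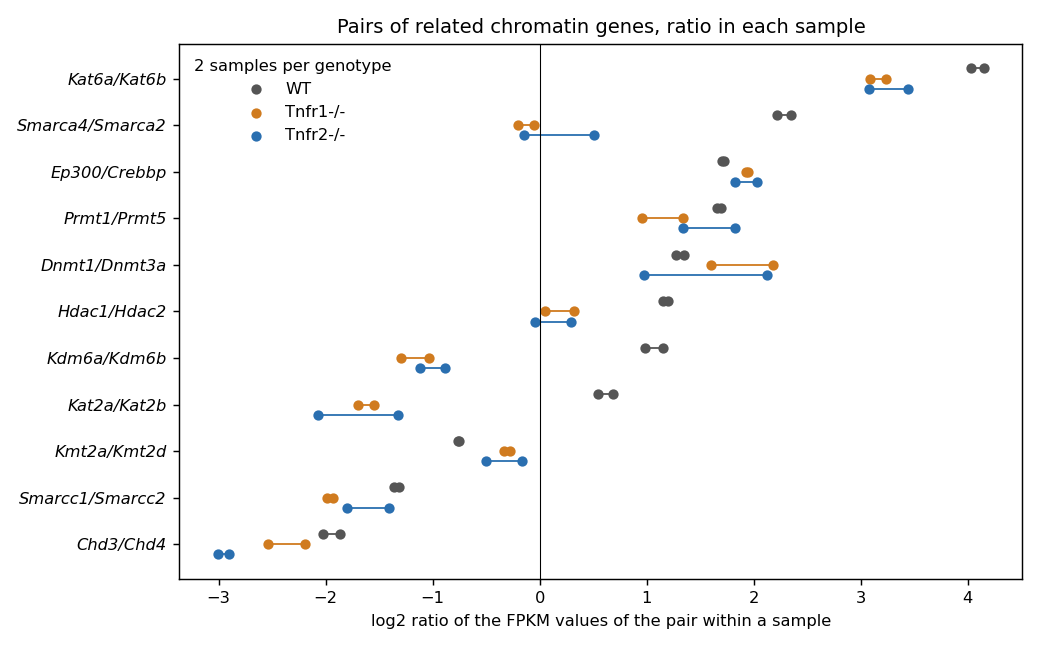
Log2 ratio of the FPKM values of 11 pairs of related chromatin genes in each sample (2 points per genotype, joined by a line); 0 means equal FPKM. Kdm6a/Kdm6b and Kat2a/Kat2b lie above 0 in WT and below 0 in all 4 knockout samples, while Dnmt1/Dnmt3a and Prmt1/Prmt5 overlap between WT and Tnfr2-/-.

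Chromatin genes have long transcripts, and transcript length went with the direction of change. The longest annotated transcript of the members had a median of 4852 bases, against 3008 over 8166 listed genes with a length. Across the 99 members Spearman's rho between length and log2 change as deposited was 0.53 in Tnfr2-/- and 0.54 in Tnfr1-/-, and across all genes 0.29 and 0.31; these genes share 6 libraries and are not independent. Members called higher in Tnfr2-/- had a median length of 6654 bases, those called lower 2919 and those not called 4350. When genes were split by length into 4 classes of equal size, in the longest class, above 4533 bases, 29 of 56 members were called higher and 12 lower with a median log2 change of 0.61, where 462 and 781 of the 2042 genes of that class were called and their median was -0.34. In the shortest class, up to 1927 bases, none of 9 members was called higher and 5 were lower, where 170 and 1480 of the 2042 genes of that class were called. When a smooth trend with length was taken out of each sample, an alternative added after the data were seen, 40 members were higher and 12 lower in each comparison with WT, against 24.4% and 24.3% of all genes in Tnfr2-/- and 26.1% and 25.7% in Tnfr1-/-. Of the 33 members higher in Tnfr2-/- as deposited, 31 were called higher on this scale too, the exceptions being Kdm5a and Kmt2a. The members lower in Tnfr2-/- on all 3 scales were Chd3, Chd5, Prmt2, Setd3 and Sirt2. The part of length in the values was not otherwise tested.

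**Figure D4:**
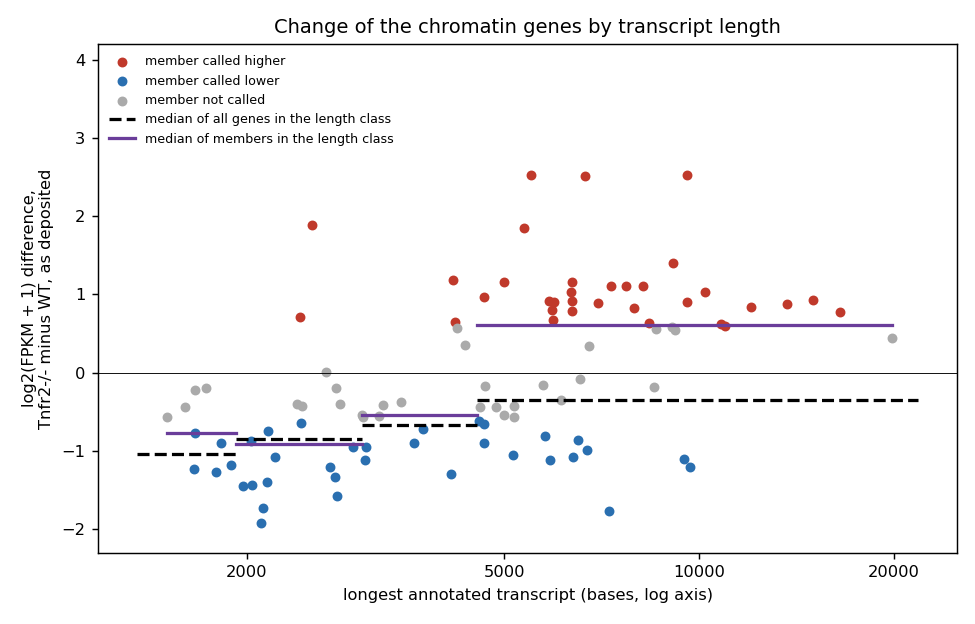
Log2(FPKM + 1) difference between Tnfr2-/- and WT as deposited for each chromatin gene (points) against the length of its longest annotated transcript in bases on a log axis; horizontal lines are medians of the members (solid) and of all genes (dashed) in each of 4 equal classes of length. In the longest class the members' median is 0.61 and that of all genes -0.34.

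Genes outside the rule that belong to the same complexes moved both ways as well. Of 110 partner genes fixed as a list, 67 are listed in the table. In Tnfr2-/- against WT 14 were higher and 28 lower as deposited, where 13.6% and 57.1% of all genes were called. After median-ratio scaling 26 were higher and 2 lower, where 21.8% and 21% of all genes were called. In Tnfr1-/- they were 14 and 33 as deposited, where 14.1% and 60.7% of all genes were called. With scaling they were 28 and 2 there, against 23.3% and 22.1% of all genes. Jarid2, an accessory subunit of Polycomb repressive complex 2, measured 1.06 and 1.02 FPKM in WT, 7.69 and 7.5 in Tnfr1-/-, and 10.8 and 15.5 in Tnfr2-/-, the largest rise among them in Tnfr2-/- (log2 2.77, limma adjusted p = 0.000134). Other risers as deposited included Rnf2 of PRC1, Gatad2b of NuRD, Sap30, Suds3, Ing1, Ing2 and Ncor1 of the Sin3 and NCoR complexes, Ing3, Epc1 and Epc2 of acetyltransferase complexes, Ash1l and Rsf1. The 2 partners lower after scaling were Smyd2, a methyltransferase of histones and other proteins (16.6 and 13.1 FPKM in WT, 1.82 and 1.53 in Tnfr1-/-, and 1.38 and 2.91 in Tnfr2-/-), and Mbd3, the NuRD subunit (52.1 and 49.9 FPKM in WT, 11.9 and 10.4 in Tnfr1-/-, and 10.3 and 13.5 in Tnfr2-/-). Thus among NuRD genes Chd3 and Mbd3 were called lower in Tnfr2-/- under both scalings and Gatad2b higher under both. By complex, 5 of 11 Sin3, CoREST and NCoR genes were higher and 1 lower in Tnfr2-/- as deposited, against 13.6% and 57.1% of all genes. Of 6 COMPASS genes none was higher and 3 were lower, as also of 6 genes of heterochromatin and methyl-CpG readers, a share near the 57.1% called lower among all listed genes. Differences between complexes were not tested.

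Between the knockouts the chromatin genes were close. As deposited no member was called higher and 1 lower in Tnfr2-/- than in Tnfr1-/-, where 0.842% and 0.61% of all genes were called, and the members' median log2 difference was 0.00035. At an unadjusted limma p under 0.05 there were 10 of the 99 members, against 1962 of all 8191 genes. After median-ratio scaling 0 were higher and 2 lower, against 1.09% and 1.45% of all genes. The member called was Hdac11, the only class IV deacetylase, known in myeloid cells as a repressor of the cytokine gene Il10. It measured 0.297 and 0.297 FPKM in WT, 1.09 and 0.92 in Tnfr1-/-, and 0.267 and 0.338 in Tnfr2-/-. As deposited Tnfr1-/- thus stood above both other genotypes, which overlapped. WT and Tnfr2-/- differed by 0.01 on the log2 scale (limma adjusted p = 0.919). Tnfr1-/- was 3.38-fold over WT, and Tnfr2-/- was 3.32-fold under Tnfr1-/- (log2 -0.62 ± 0.05, limma adjusted p = 0.0255). The difference of Tnfr2-/- from WT depended on the scaling. It was 0.21, not called, after median-ratio scaling and 0.81, called higher, with the length trend removed. All its values are near or below 1 FPKM, and the call was lost when only the 2 knockouts were fitted (adjusted p = 0.153) and whenever a sample was left out. The second member after scaling was Kmt2a, at a log2 difference of -0.62 (0.0489) and -0.48 as deposited (adjusted p = 0.079). For the remaining members no difference between the knockouts passed the thresholds with 2 samples each, which does not show that they were equal.

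**Figure D5:**
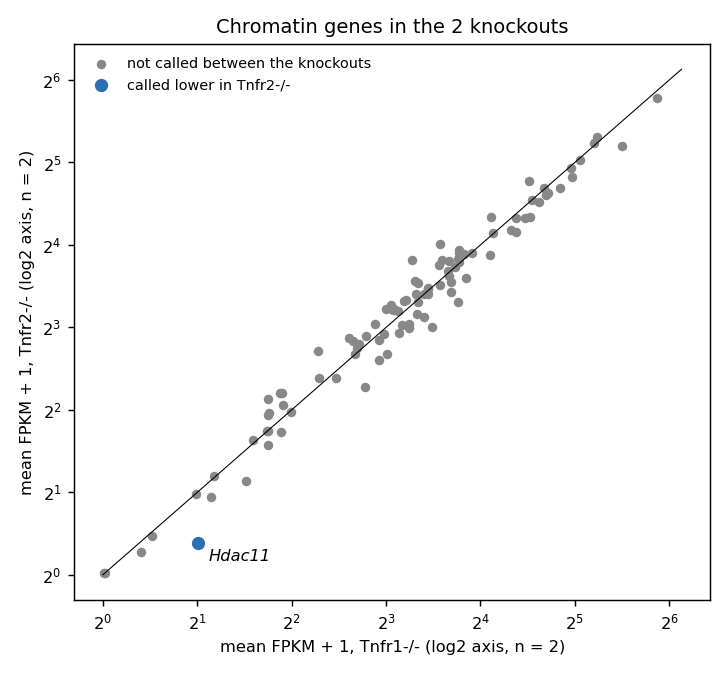
Mean FPKM + 1 of each of the 99 chromatin genes in Tnfr1-/- (x axis) and Tnfr2-/- (y axis), both on log2 axes, with the line of equality; each mean is of 2 samples. Hdac11, in blue, is the only gene called different, and lies below the line.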

How the data were processed

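Splenic MDSCs of WT, Tnfr1-/- and Tnfr2-/- mice, 2 samples per genotype, were grouped by the genotype given in the sample labels. Per the study's methods, libraries were sequenced as single-end reads of 50 bases and checked with FastQC. The submitters' processing notes name edgeR and mm10, and the aligner and the tool that made the values are not given in the sources used here. The authors deposited FPKM values for 8191 genes and a p-value per gene, which holds their own comparison and was not used. Sequencing depth is unknown, so no counting interval is given. The largest one-way ANOVA p recomputed over the table was 0.0500, and genes outside it were not analysed here.

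Values were compared as log2(FPKM + 1) with limma 3.58.1 in R 4.3.3 (group means, contrasts, eBayes with trend) in 1 model of all 6 samples, two-sided, with Benjamini-Hochberg adjustment over all genes, an adjusted p under 0.05 and a fold change over 1.5. Fold changes in the text are ratios of mean FPKM, and log2 changes are on the log2(FPKM + 1) scale, which understates changes of low genes. The alternatives were a pseudocount of 0.1, mean FPKM filters of 1 and 5, fitting 2 groups alone, a replicate block, quantile normalization, median-ratio size factors, eBayes with no trend, leaving out each sample, and removal of a length trend (lowess, span 0.5). Lengths come from GENCODE M21 on GRCm38. The fit was tested on simulated data. Whether the 2 samples of a group differ beyond technical spread is known only from their description as independent experiments.

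Named were the genes of 19 fixed pairs and a fixed list of key members, the 5 largest rises and 5 largest falls per comparison among called genes without overlap, members called between the knockouts, and the 3 most abundant. Some genes these rules name are not reported here. The others appear in role counts or were chosen after their values were seen. Members and lists were chosen with earlier results of these data known, and no p-value is given for a list.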

Additional observations from a re-analysis of the deposited data

Results flagged for a closer look

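Hdac11 was the 1 chromatin gene whose change against WT differed between the knockouts, by the direct test of Tnfr2-/- against Tnfr1-/-. Its log2(FPKM + 1) difference was -0.62, with 0.267 and 0.338 FPKM in Tnfr2-/-, 1.09 and 0.920 in Tnfr1-/-, and 0.297 in both WT samples. Over the alternatives other than leaving out a sample the limma adjusted p ran from 0.00897 to 0.153, and the call was lost in 3 of them (only the 2 groups compared, the replicate block, eBayes without trend). The gene falls out of the table under a mean of at least 1 FPKM.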

How the results depend on the processing

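The counts of members called higher against WT stayed within 1.5 times under every alternative, and the counts called lower did not. In Tnfr2-/- against WT 6 members were lower with median-ratio size factors, 8 with quantile normalization and 12 with the length trend removed, and in Tnfr1-/- against WT 5, 10 and 12. The median log2 change of the members in Tnfr2-/- against WT was -0.17 among members with a mean of at least 5 FPKM, and turned to 0.48, 0.33 and 0.30 under those 3 scalings in that order. With a sample left out it ranged from -0.38 to -0.25. In Tnfr1-/- it was -0.19, 0.59, 0.45 and 0.37. The median-ratio values follow by construction, since a size factor moves every gene of a sample together, and the cause of the other turns was not tested. Tnfr2-/- against Tnfr1-/- gave 0 members lower with a filter of 1 or 5 FPKM, with the 2 groups alone, with the replicate block and with eBayes without trend, and 2 with median-ratio size factors. With a sample left out 0 were lower and 0 to 4 higher, the 4 (Dnmt3a, Kdm2b, Phf5a and Prmt1) without Tnfr2-/- replicate 1. The members' median there was -0.12 after median-ratio scaling and -0.0983 after quantile normalization.

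Several genes that were not called, or called lower, in Tnfr2-/- against WT as deposited had a positive log2 difference under another scaling. With median-ratio, quantile and length scaling in that order these were Hdac2 (0.52, 0.33, 0.30), Ezh2 (0.45, 0.31, 0.38), Hdac5 (0.48, 0.30, 0.017), Kdm1a (0.35, 0.18, 0.18), Sirt3 (0.34, 0.30, 0.56), Sirt7 (0.77, 0.63, 0.78), Smarcd2 (0.77, 0.59, 0.60) and Bap1 (0.55, 0.37, 0.30). Brd2 (0.31, 0.17) and Smarcc2 (0.33, 0.15) turned under the first 2 of these, Hdac3 under the first and the third (0.073, 0.050), and Smarcc1 (0.075) and Setdb1 (0.011) under the first. Without Tnfr2-/- replicate 2 the small difference of Hdac11 against WT became -0.034, and it ranged up to 0.045 with another sample left out. With median-ratio scaling it was 0.21, and with the length trend removed 0.81, where the gene was called higher. The ratio of Kat6a to Kat6b in Tnfr2-/- against WT turned to 0.30 with 1 FPKM added to both genes. Same-numbered samples of different genotypes did not deviate together (r = 0.022, 0.030 and 0.046), so the numbers do not pair them, and the replicate block changed no call of a named gene against WT.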
